A study of Mus musculus with 140 samples.

Results

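The Zfp genes are a large numbered series of mouse zinc finger genes, and 270 of them were measured in gastrocnemius muscle after a treadmill bout. They were taken as every protein-coding gene whose GRCm38 symbol is Zfp followed by a number, out of 11461 genes in the deposited data. Of 273 such symbols, Zfp36 was left out by rule and 2 pseudogenes, Zfp783 and Zfp939, were left out as not protein-coding.

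Male C57B6/J mice aged 10 to 11 weeks, kept in 12 h of light and 12 h of darkness, ran for 1 h from ZT3 (early rest phase) or from ZT15 (early active phase), where ZT0 is lights on. Sham mice of the same strain, sex and age stood on a stationary treadmill for 1 h at the same times. Muscle was taken 0, 4, 8, 12, 16 or 20 h later, which gives 24 groups by phase, treatment and hour. Of 140 samples, 3 had no file and were not analysed here. The libraries at 0 h were 4 exercised and 5 sham libraries in the rest phase, and 6 of each in the active phase. The labels give no batch and do not say that each library is 1 mouse, so p values measure the spread between libraries. In the main test this spread was shared per gene over all 24 groups, and not taken from the compared groups alone.

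A classical C2H2 zinc finger is a short fold in which 2 cysteines and 2 histidines hold a zinc ion, and a row of fingers reads a DNA sequence. Many Zfp proteins also carry a KRAB box, which recruits the corepressor TRIM28 and, through it, the histone methyltransferase SETDB1. KRAB zinc fingers are best known for silencing retroelements and for keeping imprinted loci methylated, and many of their genes lie in clusters of related copies. Members without a KRAB box have other jobs, among them promoter activation, RNA binding and cell fate choice.

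By patterns searched in translated GENCODE vM21 coding sequences, 43.3% of members had a KRAB box and at least 3 C2H2 fingers, 49.3% had at least 3 fingers and no KRAB box found, and the other 20 members had fewer than 3 fingers. The median member had 11 fingers and the highest count was 36. Chromosome 7 held 62 members, chromosome 17 held 36 and chromosome 13 held 24. Transcripts of the KRAB members were poor in G and C, with a median of 40.3%, against 49.6% in members with fingers and no KRAB box and 50.2% in all protein-coding genes. Most members were low. Their median mean value was 6.37 in reads per M of a scaled library size, the unit of all values below, against 12.0 over all genes. Per kb of exon, Zfp106, an RNA-binding protein needed in motor neurons and muscle, was highest at a level of 48.5. Zfp931, a KRAB member, followed at 19.6 and Zfp91, a ubiquitin ligase, at 19.5.

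4 members passed the test at 0 h, all lower after exercise in the active phase, and their promoters are shown because the results turn on these genes. Each is the 250 bases before the RefSeq start on GRCm38.p6, 5′ to 3′, with capitals marking a GC box (GGGCGG on either strand). Zfp982 lies on chromosome 4 (+ strand, promoter chr4:147492167-147492416), Zfp979 also on chromosome 4 (− strand, chr4:147642509-147642758), Zfp14 on chromosome 7 (− strand, chr7:30051397-30051646) and Zfp760 on chromosome 17 (+ strand, chr17:21707491-21707740).
Zfp982: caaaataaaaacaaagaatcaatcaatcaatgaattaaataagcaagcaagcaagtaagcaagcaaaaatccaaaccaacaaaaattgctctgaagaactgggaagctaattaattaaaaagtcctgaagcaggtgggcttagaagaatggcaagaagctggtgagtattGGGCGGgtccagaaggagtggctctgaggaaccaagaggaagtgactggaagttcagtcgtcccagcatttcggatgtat
Zfp979: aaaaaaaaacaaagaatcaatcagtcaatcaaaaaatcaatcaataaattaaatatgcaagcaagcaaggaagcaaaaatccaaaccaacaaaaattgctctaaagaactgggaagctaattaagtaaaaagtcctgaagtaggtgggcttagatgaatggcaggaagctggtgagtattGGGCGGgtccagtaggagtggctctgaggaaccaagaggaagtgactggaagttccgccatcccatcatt
Zfp14: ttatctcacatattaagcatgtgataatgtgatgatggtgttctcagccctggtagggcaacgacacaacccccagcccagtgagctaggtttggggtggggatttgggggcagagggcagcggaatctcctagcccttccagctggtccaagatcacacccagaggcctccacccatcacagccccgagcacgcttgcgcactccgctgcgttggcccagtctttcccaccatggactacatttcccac
Zfp760: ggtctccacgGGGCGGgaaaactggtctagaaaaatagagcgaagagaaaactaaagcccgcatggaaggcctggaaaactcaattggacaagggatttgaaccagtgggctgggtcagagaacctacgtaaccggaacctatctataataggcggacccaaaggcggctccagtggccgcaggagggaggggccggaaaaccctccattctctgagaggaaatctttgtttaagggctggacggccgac

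The Zfp982 and Zfp979 promoters are close copies: 222 of 250 bases lay in matching blocks of an alignment, and the longest identical run was 42 bases. The GC box occurred in 41.96% of the 224 member promoters in the table and in 32.7% of all 32851 promoters. The ETS site CCGGAAG, searched on both strands as were all motifs, occurred in 17.4% of member promoters and 6.91% of all, and in none of the 4 shown. The AP-1 site TGANTCA occurred in 3.12% of member promoters and 6.75% of all, the cAMP response element TGACGTCA in 3.12% and 1.55%, the E-box CACGTG in 7.14% and 6.02%, and the TATA box TATAAA in 4.46% and 12.4%. Member promoters had a median of 11 CpG pairs (a C followed by a G), and all promoters 6. The part of these pairs in the motif shares was not tested. None of these searched motifs contains another. These matches are descriptions of letters, not of binding.

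Directly after the active phase bout, Zfp982, Zfp979, Zfp14 and Zfp760 were lower than in sham mice. All 4 encode KRAB zinc fingers. They were 4 of 270 members called lower (1.48%), while 0.201% of all genes were called lower and 0.977% higher, with limma and Benjamini-Hochberg adjusted p under 0.05. No member was called higher. At an unadjusted p under 0.05, 55 members were lower and 30 higher, against 6.29% of all genes lower and 15.4% higher.

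Zfp982 (chromosome 4, 147492417 to 147513486) had values of 4.55, 2.45, 3.65, 2.04, 3.11 and 3.55 in active phase sham replicates 1 to 6 and 0.507, 0.870, 1.02, 1.32, 1.05 and 1.21 after exercise. Every exercised library was below every sham library. The log2 change was -1.30 (SE 0.29, adjusted p = 0.0043, limma). The exercised values rest on 2 to 17 reads per library and the sham values on 15 to 41.

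Zfp979 (chromosome 4, 147611937 to 147642513) had values of 9.65, 8.66, 7.12, 6.38, 12.9 and 11.3 in sham and 3.04, 2.49, 4.53, 5.89, 4.67 and 4.41 after exercise, again without overlap. Its log2 change was -1.08 (SE 0.28, adjusted p = 0.021, limma). Of its transcript stretches of 50 bases, 26.7% also occur in transcripts of other genes, and for Zfp982 the share is 11.9%. The counts of both are therefore uncertain, since reads of near-identical copies may have been assigned or dropped.

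Zfp14 (chromosome 7, 30036359 to 30051380) had values of 6.01, 11.5, 8.55, 11.1, 6.49 and 9.09 in sham and 2.28, 3.73, 5.92, 6.25, 4.39 and 3.41 after exercise. The groups overlapped by 1 library on each side. The log2 change was -0.97 (SE 0.24, adjusted p = 0.015, limma). No stretch of 50 bases in its transcripts occurs in another gene.

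Zfp760 (chromosome 17, 21707741 to 21725636) had values of 3.64, 3.49, 4.10, 4.07, 3.52 and 3.33 in sham and 0.761, 1.99, 2.34, 2.52, 1.60 and 1.21 after exercise. Every exercised library was below every sham library. The log2 change was -0.96 (SE 0.25, adjusted p = 0.020, limma), and 0.577% of its stretches are shared.

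**Figure D1:**
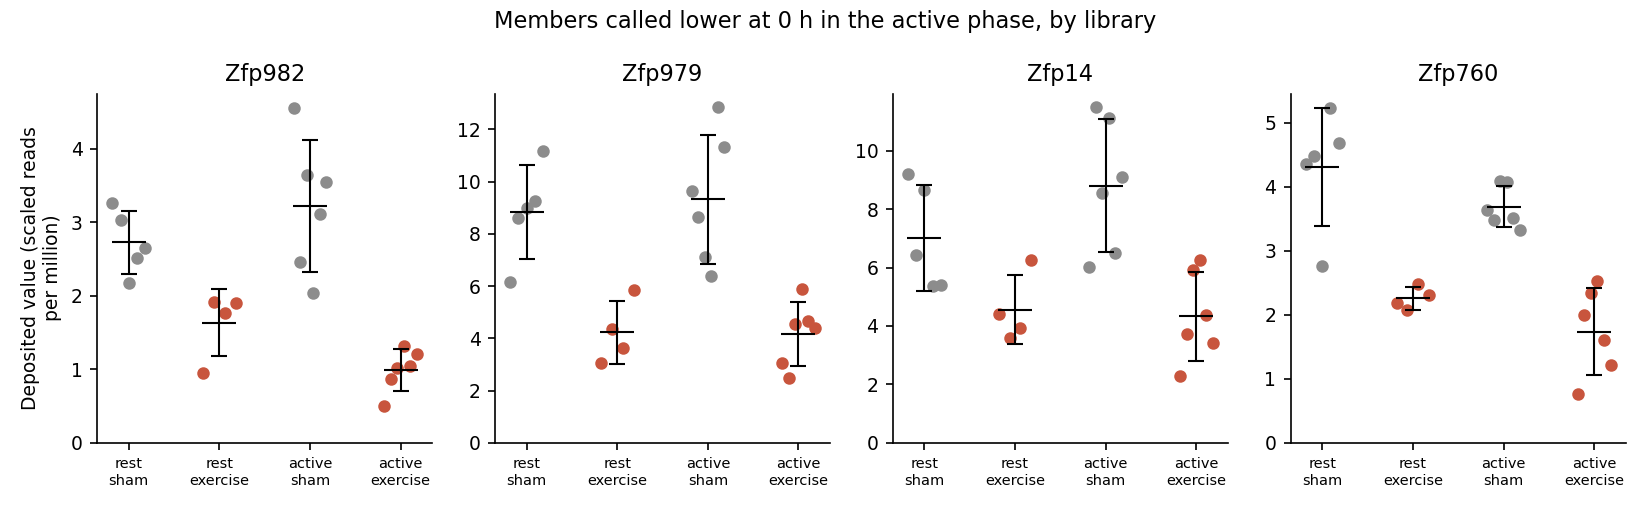
Deposited values (y axis, reads per M of a scaled library size, from 0) of the 4 members called lower at 0 h in the active phase, in each library of the 4 groups at 0 h (x axis); points are libraries, lines the mean and bars the SD. Exercised libraries of Zfp982, Zfp979 and Zfp760 lie below all sham libraries of the same phase, and those of Zfp14 overlap sham in both phases.

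In the active phase these calls were sensitive to the base composition of the libraries, and those of Zfp979, Zfp14 and Zfp760 to single libraries. Zfp982 passed in all 12 fits that left out 1 library, with adjusted p from 0.0028 to 0.030 (limma). Without exercised replicate 1 only Zfp982 passed (adjusted p = 0.030, limma). With the GC slope of each library as a covariate, described below, none of the 4 passed: Zfp982 had an adjusted p of 0.070, Zfp14 of 0.25, Zfp979 of 0.30 and Zfp760 of 0.31 by limma.

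After the rest phase bout no member was called in either direction, while 0.0175% of all genes were called lower and 0.332% higher. edgeR and DESeq2 on recovered reads also called none. Limma fitted to the rest phase libraries at 0 h alone took its spread from these libraries only. That fit called 66 members lower (24.4%, against 15% of all genes) and 23 higher (8.52%, against 16.8%). At an unadjusted p under 0.05, 22 members were lower and 13 higher, against 3.07% of all genes lower and 11.9% higher. The same 4 genes had negative estimates that did not pass: the log2 difference was -0.62 (SE 0.34) for Zfp982, -0.99 (SE 0.32) for Zfp979, -0.57 (SE 0.28) for Zfp14 and -0.78 (SE 0.29) for Zfp760. Their adjusted p values by limma ran from 0.27 for Zfp979 to 0.36 for Zfp982.

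Zfp747, another KRAB member, had the smallest adjusted p of the rest phase. Its values were 3.37, 4.73, 5.53, 4.66 and 4.21 in sham replicates 1, 2, 4, 5 and 6 and 2.18, 2.37, 2.05 and 2.72 in exercised replicates 1, 2, 5 and 6, without overlap. The log2 difference was -0.81 (SE 0.25, adjusted p = 0.23, limma), and 34.4% of its stretches of 50 bases are shared with other genes.

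The other members at the low end by test statistic did not pass. In the rest phase they were Zfp764, Zfp748, Zfp945, Zfp606, Zfp763, Zfp87 and Zfp202, with log2 differences from -0.78 for Zfp748 to -0.51 for Zfp87. In the active phase they were Zfp182, Zfp40, Zfp945, Zfp882, Zfp35, Zfp953 and Zfp37, from -0.84 for Zfp182 to -0.69 for Zfp882. Zfp945 and Zfp760 stood at the low end of both phases, as did Zfp979. At the high end were Zfp777, Zfp568 and Zfp507 in the rest phase, at 0.93, 0.76 and 0.82, and Zfp423, Zfp358 and Zfp143 in the active phase, at 1.17, 0.86 and 0.80. Zfp423, which commits cells to the fat lineage, had values of 2.18, 1.2, 1.78, 3.53, 2.30 and 2.0 in sham and 6.85, 6.47, 2.48, 3.25, 8.36 and 6.75 after exercise (adjusted p = 0.079, limma), and the groups overlapped. Zfp143, an activator of many promoters, had 2.91, 2.45, 3.83, 1.63, 5.01 and 3.77 in sham and 6.34, 4.97, 4.97, 5.05, 7.32 and 6.25 after exercise (adjusted p = 0.086, limma), with sham replicate 5 reaching into the exercised range.

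Over the whole group the estimates leaned downward at 0 h in both phases. The median log2 difference of members was -0.18 in each phase, against 0.01 and 0.03 over all genes. It was negative in 167 and 163 of 270 members. Every exercised library lay below every sham library for 46 members of the rest phase (17%, against 11.1% of all genes) and for 14 in the active phase (5.19%, against 0.951%). Every exercised library lay above for 13 (4.81%, against 12.7%) and for 1 (0.370%, against 1.25%).

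The downward lean was largest in the KRAB members. Their median log2 difference was -0.45 after the rest phase bout and -0.46 after the active phase bout, and it was negative in 86.3% and 82.1% of them. Members with fingers and no KRAB box had medians of 0.04 and 0.06, negative in 44.4% and 45.9% of them, and members with fewer than 3 fingers had 0.15 and 0.16. At an unadjusted p under 0.05, 18 KRAB members were lower after the rest phase bout (15.4%, against 3.07% of all genes). In the same contrast 2 were higher (1.71%, against 11.9%). After the active phase bout 40 were lower (34.2%, against 6.29%) and 4 higher (3.42%, against 15.4%). The 47 KRAB genes with at least 3 fingers that carry other symbols had medians of -0.45 and -0.46. Medians of the other zinc finger families looked at, Klf, Zbtb, and Zscan with Zkscan, were above 0. These families were not matched to the members in GC content. The 11 Klf genes had medians of 0.44 and 0.52, the 32 Zbtb genes 0.22 and 0.17 and the 15 Zscan and Zkscan genes 0.06 and 0.08.

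The lean was present in each library. Relative to the mean of sham libraries, the median KRAB member stood at -0.35, -0.54, -0.49 and -0.20 in exercised replicates 1, 2, 5 and 6 of the rest phase, and between -0.09 and 0.08 in sham. In exercised replicates 1 to 6 of the active phase it stood at -0.75, -0.49, -0.28, -0.17, -0.57 and -0.42, and between -0.08 and 0.11 in sham. All 10 exercised libraries were below all sham libraries of their phase. For members with fingers and no KRAB box, exercised libraries ran from -0.03 to 0.10 and from -0.04 to 0.23, overlapping sham. In bulk muscle, fewer cells of a type and less RNA per cell cannot be told apart.

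**Figure D2:**
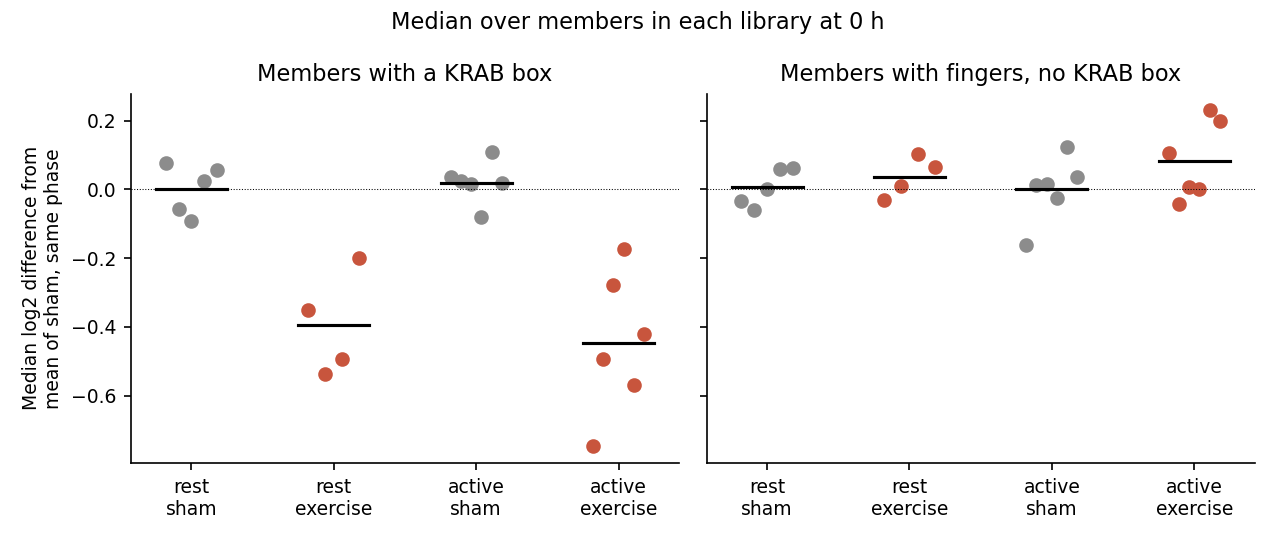
Median log2 difference from the sham mean of the same phase (y axis) over KRAB members (left) and members with fingers and no KRAB box (right), for each library at 0 h (points; lines are group means). The exercised libraries lie below sham for KRAB members, from -0.75 to -0.17, and overlap sham for the others.

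The base composition of the libraries moved with the same contrast. For each library a GC slope was obtained over protein-coding genes that are no members, fitting how far each gene stood from its average level, in log2, to its transcript GC, per 10 percentage points. A positive slope means that GC-rich transcripts were relatively high in that library. At 0 h it ran from -0.24 to -0.04 in active phase sham libraries and from -0.03 to 0.16 in exercised ones, with no overlap. In the rest phase it ran from -0.20 to -0.05 in sham and from -0.09 to 0.08 after exercise, where exercised replicate 6 lay within the sham range. Over all libraries, taken as deviations from their group means, the KRAB median and the GC slope correlated at Pearson r = -0.96 (Spearman rho -0.95, and -0.95 for Pearson without the 2 most distant libraries). For a slope on transcript length r was -0.87, and for members with fingers and no KRAB box r with the GC slope was 0.41. These correlations are descriptions with no p, and their points share libraries, depth and base composition.

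**Figure D3:**
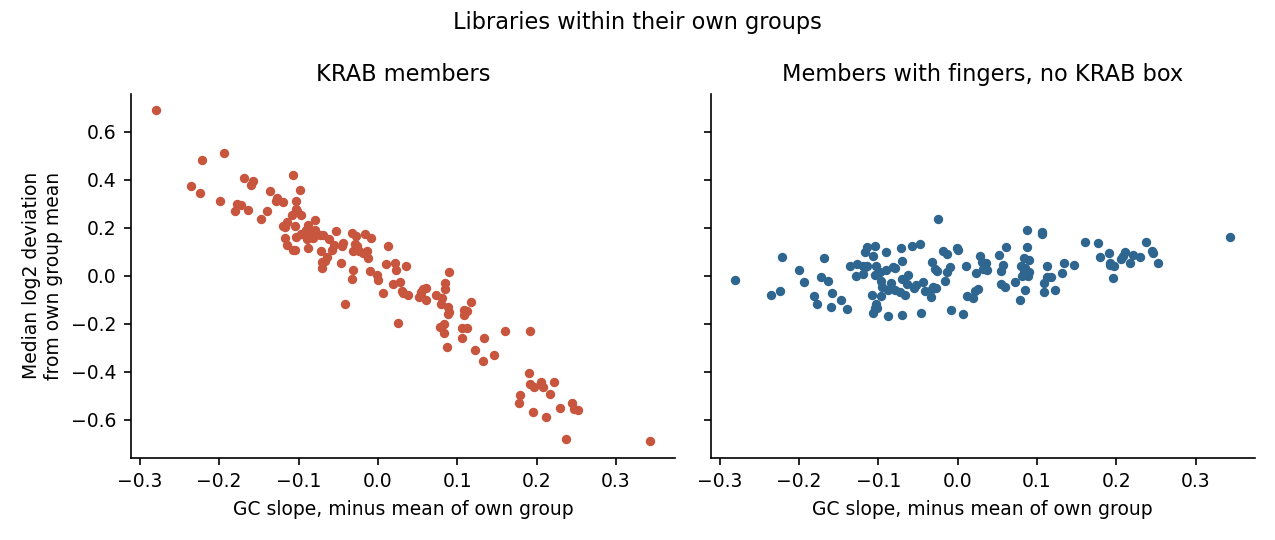
Each point is 1 library: its GC slope (x axis, log2 per 10 percentage points) and its median log2 deviation over members (y axis), both minus the mean of its own group. KRAB members (left) fall as the slope rises (r = -0.96), while members without a KRAB box (right) vary less (r = 0.41).

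With the GC slope as a covariate the median log2 difference of KRAB members became -0.08 after the rest phase bout and 0.02 after that of the active phase, and that of all members -0.02 and 0.03. With a length slope in its place the KRAB medians were -0.13 and -0.19. The slope differed between the treatments at 0 h, so slope and treatment cannot be told apart in this design. The part of the GC slope in the KRAB medians was not tested.

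GC content also ordered the members themselves. Members with at most 40% GC had median log2 differences of -0.49 (rest phase) and -0.56 (active phase), those from 40 to 45% -0.33 and -0.33, those from 45 to 50% -0.13 and 0.01, and those over 50% 0.24 and 0.29. Protein-coding genes that are no members had -0.22 and -0.25, -0.08 and -0.10, 0.02 and 0.03, and 0.13 and 0.17 in the same bins. Within the lowest bin, the 50 KRAB members had -0.51 and -0.58 and the 14 other members -0.39 and -0.32. The 10 KRAB members over 50% had -0.09 and 0.16.

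**Figure D4:**
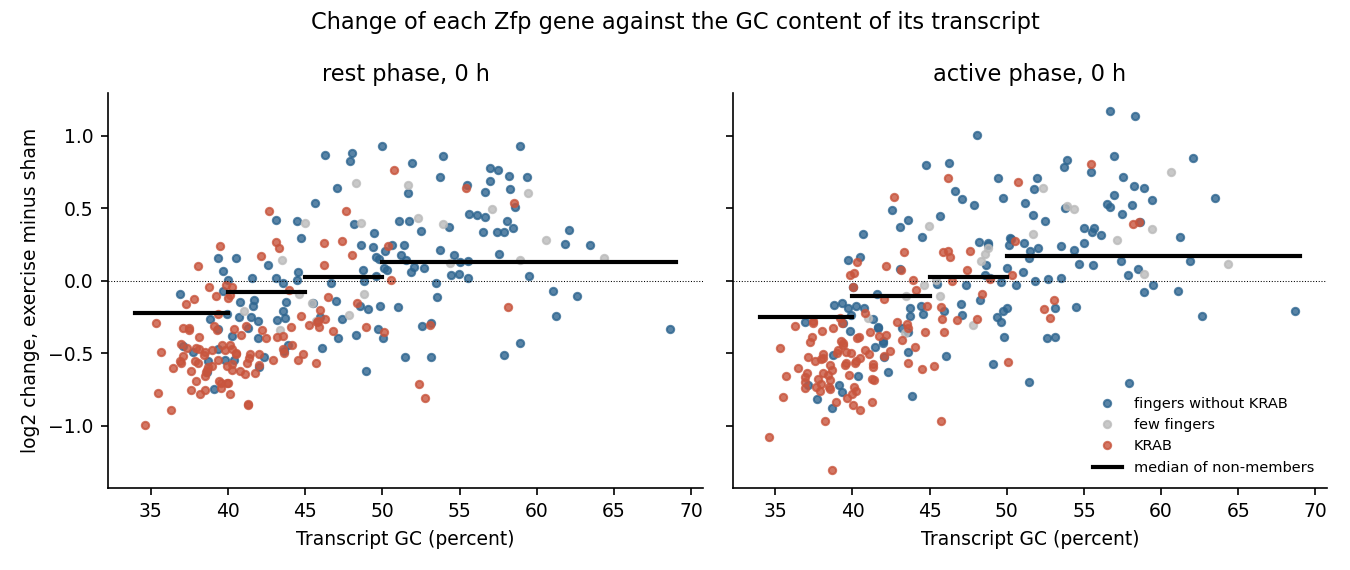
Log2 change of each of the 270 members at 0 h (y axis) against the GC percentage of its transcripts (x axis), colored by class; black lines are medians of protein-coding non-member genes in 4 GC bins, the outer 2 covering everything to 40% and over 50%. Members below 40% lie mostly under 0, with medians of -0.49 and -0.56, and those over 50% mostly above it.

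Chromosomes with at least 10 members differed. The 36 members on chromosome 17, with a median GC of 39.4%, had medians of -0.48 and -0.56. The 24 on chromosome 13, with 39.3%, had -0.46 and -0.47. The 62 on chromosome 7, with 48.9%, had -0.10 and 0.00. The 11 on chromosome 4, with 40.5%, had -0.02 and -0.17, and the 15 on chromosome 5, with 43.5%, had 0.02 and -0.11. The part of GC content in these medians was not tested. On chromosome 9, where 9 of 15 members have a KRAB box, the medians were -0.20 and 0.02. The other 5 chromosomes ran from -0.33 to 0.16 in the rest phase and from -0.27 to 0.12 in the active phase.

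No member of the role lists passed the test at 0 h. The 7 measured muscle and fat members had medians of 0.09 and 0.42. Zfp516, an activator of the brown fat gene Ucp1, had estimates of 0.21 and 0.50, Zfp521, a zinc finger that holds back fat cell formation, 0.09 and 0.25, and Zfp467, which favors it, -0.51 and -0.70. Zfp106 was at 345.4 ± 85 (SD, n = 5) in rest phase sham and 544.3 ± 177.1 (SD, n = 4) after exercise, with a log2 difference of 0.64 (adjusted p = 0.39, limma). The 4 measured silencers of retroelements or imprinted loci split: Zfp568, which silences a placental Igf2 transcript in the mouse, had estimates of 0.76 and 0.68, Zfp445, which protects imprints, 0.22 and 0.20, Zfp809, which silences murine leukemia virus, -0.28 and -0.18, and Zfp932, which binds endogenous retroviruses, -0.66 and -0.68. The 8 promoter-binding members without KRAB had medians of 0.35 and 0.29, and 1 was negative in both phases, Zfp148, a binder of GC-rich promoters, at -0.23 and -0.23. Zfp281, a regulator of pluripotency genes, had 0.42 and 0.37, and Zfp335, a coactivator needed in neural progenitors, 0.71 and 0.55. The 6 RNA and ribosome members had -0.03 and -0.18, among them Zfp598, a ligase that senses collided ribosomes, at 0.61 and 0.36, and Zfp207, a spindle and splicing factor, at -0.24 and -0.30. Of the 26 measured partners of KRAB proteins none passed, and their medians were 0.38 and 0.27; Trim28 itself stood at 0.74 (SE 0.36) and 0.55 (SE 0.31), and Setdb1 at 0.46 (SE 0.27) and 0.33 (SE 0.23). The heterochromatin protein gene Cbx5 had 0.52 and 0.54, the remodeler Chd4 0.85 and 0.72, and the remodeler Smarcad1 -0.44 and -0.34.

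Of the abundant members, Zfp931 had values from 44.2 to 80.1 in rest phase sham and from 21.9 to 44.8 after exercise, and from 49.7 to 91.6 and from 27.6 to 52.8 in the active phase, with overlap in both. Its log2 differences were -0.86 (SE 0.54, adjusted p = 0.40, limma) and -0.84 (SE 0.46, adjusted p = 0.26, limma), and 23.3% of its stretches of 50 bases are shared with other genes. Zfp91 overlapped in part, at 166.5 ± 37.3 (SD, n = 5) in rest phase sham and 201.4 ± 65.9 (SD, n = 4) after exercise.

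At later hours no member passed in any of the 10 contrasts. Over all genes the shares called were 0.0175%, 0.00873%, 0.0524%, 0% and 0% at 4, 8, 12, 16 and 20 h of the rest phase, while those of the active phase were 0.0175%, 0%, 0.00873%, 0% and 0%. edgeR and DESeq2 on recovered reads called no member either. The smallest unadjusted p in each contrast belonged to Zfp771, Zfp707, Zfp185, Zfp169 and Zfp846 in the rest phase and Zfp189, Zfp677, Zfp971, Zfp623 and Zfp677 in the active phase. Of these Zfp185 at 12 h had a log2 difference of -0.99 (SE 0.28, adjusted p = 0.37, limma) and Zfp677 at 8 h -0.97 (SE 0.29, adjusted p = 0.20, limma). At an unadjusted p under 0.05, the active phase at 8 h had 49 members lower and 14 higher, against 11.2% of all genes lower and 13.2% higher.

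After 0 h the KRAB median lay on both sides of 0. In the active phase it was 0.25 at 4 h, where the exercised minus sham GC slope was -0.16, and -0.40 at 8 h, where that difference was 0.16. In the rest phase it was 0.08 at 4 h and 0.19 at 12 h, with slope differences of -0.02 and -0.03. At 0 h the slope differences were 0.15 (rest) and 0.20 (active). Members with fingers and no KRAB box stayed between -0.08 and 0.09 in all 12 contrasts. The part of the slope in these medians was not tested.

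**Figure D5:**
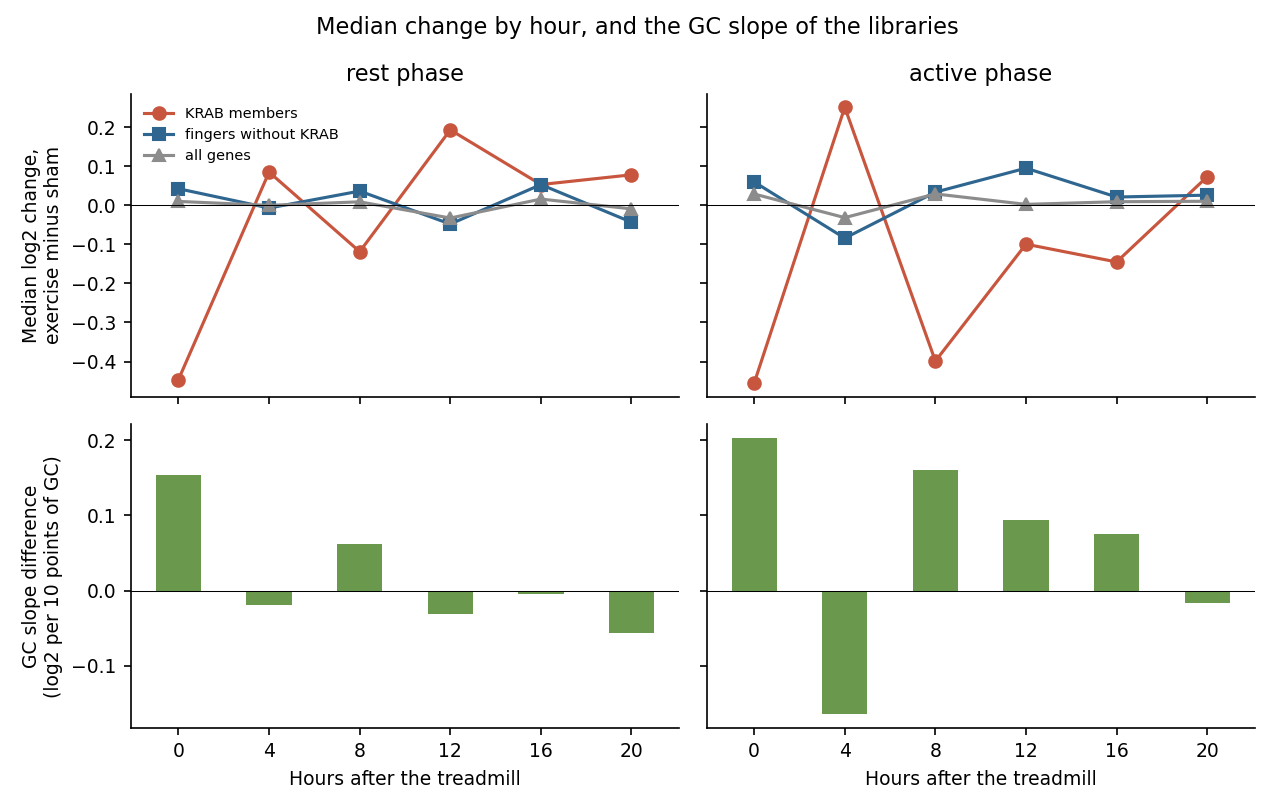
Top, median log2 change (y axis) of KRAB members, of members with fingers and no KRAB box, and of all genes, by hours after the treadmill (x axis) and phase; bottom, the mean GC slope of exercised minus sham libraries (log2 per 10 percentage points). KRAB medians are lowest at 0 h, at -0.45 and -0.46, and at 8 h of the active phase, at -0.40, where the slope differences are 0.15, 0.20 and 0.16.

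Set against all hours, the sham groups at 0 h stood high and the exercised groups at 0 h stood low. Relative to the mean of all libraries, the median KRAB member stood at 0.29 ± 0.07 (SD, n = 5) in rest phase sham at 0 h and at 0.19 ± 0.05 (SD, n = 6) in active phase sham at 0 h. These were the highest means of the 6 sham groups of each phase, where the other hours ran from -0.12 to 0.18 in the rest phase and from -0.19 to 0.17 in the active phase. The exercised groups at 0 h stood at -0.11 ± 0.10 (SD, n = 4) and -0.21 ± 0.17 (SD, n = 6), the lowest of the exercised groups of each phase. The mean GC slope was -0.13 in both sham groups at 0 h, the lowest values of the 24 groups. It was 0.02 and 0.07 in the exercised groups at 0 h. The part of the slope in these levels was not tested. The SD between libraries of a group was larger at most later hours, up to 0.44 in active phase exercised and sham libraries at 16 h.

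Among the called members, 3 had high sham means at 0 h in both phases. Zfp982 had its highest sham means at 0 h, at 2.73 ± 0.43 (SD, n = 5) and 3.23 ± 0.90 (SD, n = 6), against 1.40 to 2.01 and 1.20 to 2.26 at later hours of the rest and active phase. Zfp979 had sham means of 8.83 ± 1.80 (SD, n = 5) and 9.33 ± 2.47 (SD, n = 6) at 0 h, against 4.95 to 7.70 and 5.41 to 7.67 later. Zfp14 had 7.01 ± 1.81 (SD, n = 5) and 8.80 ± 2.28 (SD, n = 6), against 4.86 to 5.93 and 4.43 to 5.95. In these 3 genes the difference at 0 h thus included sham values above those of the later sham groups. Zfp760 differed: its active phase sham mean of 3.69 ± 0.32 (SD, n = 6) at 0 h was near the later ones of 2.88 to 3.62, and its exercised mean of 1.74 ± 0.68 (SD, n = 6) was the lowest of the phase. The exercised means at 0 h were not the lowest for every gene. Active phase exercised Zfp14 had a mean of 4.33 at 0 h and lower means of 3.95 and 4.00 at the 2 latest hours. Rest phase exercised Zfp982 had 1.64 at 0 h and 1.55 and 1.42 at those hours. By 4 h the exercised means were 2.29 for Zfp982, 6.54 for Zfp979, 6.78 for Zfp14 and 3.44 for Zfp760, and log2 differences from sham were 0.70, 0.18, 0.39 and 0.01, none called. At 8 h they were -0.61, -0.77, -0.41 and -0.49, again none called. These group means were set side by side without a test across hours.

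The exercise effect was not shown to differ between phases for any member. In the interaction of phase and exercise no member and 0% of all genes passed at each of the 6 hours, by limma, and edgeR and DESeq2 on recovered reads called no member. At 0 h 1 member had an unadjusted p under 0.05, Zfp563, with a negative difference (0.370% of members). Of all genes 0.393% had a negative and 0.602% a positive difference at this cut. For Zfp563 the active minus rest difference was -0.82 (SE 0.37, adjusted p = 0.9999, limma). For Zfp982 this difference was -0.69 (SE 0.45), for Zfp14 -0.40 (SE 0.37), for Zfp760 -0.19 (SE 0.38) and for Zfp979 -0.09 (SE 0.43).

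No member was called rhythmic over 24 h in sham muscle, where 0.768% of all genes passed in the rest phase arm and 1.97% in the active phase arm. At an unadjusted p under 0.05 there were 22 members (8.15%, against 9.28% of all genes) and 19 (7.04%, against 11.4%). edgeR called none and DESeq2 called 1, Zfp940 in the active phase arm (adjusted p = 0.0095). Zfp979 had the second smallest member p of the rest phase arm, with a fitted peak to trough of 0.72 on the log2 scale (adjusted p = 0.21, limma), and group means from 4.95 at ZT16 to 8.83 at ZT4. Within a sham arm, clock time and hours after handling cannot be told apart, and ZT4 was 0 h of the rest phase arm. In the active phase arm the Zfp979 sham mean was 9.33 at ZT16 (0 h) and 5.93 at ZT4 (12 h).

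The libraries held 2.19 M to 27.6 M recovered reads, with a median of 11.0 M, and 6.75 M to 25.7 M at 0 h. 6 libraries correlated under 0.9 with their own group, none of them at 0 h. The tissue carried muscle fibre genes, whose 7 markers summed to 80490 to 167005 in sham libraries at 0 h. Among the other marker lists 1 gene passed at 0 h, the monocyte receptor Ccr2, lower in the active phase (log2 -0.87, SE 0.24, adjusted p = 0.035, limma). The macrophage list of 9 had medians of -0.28 and -0.31, with summed levels from 115.4 to 147.3 in rest phase sham and from 91.3 to 130.1 after exercise, and from 105.7 to 141.7 and from 61.5 to 120.8 in the active phase. Medians of the other lists in the rest and active phase were 0.34 and 0.41 for endothelium, -0.32 and -0.19 for fibroblasts, -0.44 and -0.41 for adipocytes, 0.01 and -0.42 for Schwann cells, 0.16 and 0.31 for smooth muscle and pericytes, -0.66 and 0.01 for slow fibres, 0.56 and 0.48 for muscle fibre genes, -0.67 and -0.46 for red blood cells and -0.13 and 0.16 for the 1 measured satellite cell marker, Vcam1. The summed level of the smooth muscle and pericyte list went the other way, with overlap in both phases. Its median was 543.9 in rest phase sham and 422.8 after exercise, and 562.2 and 436.8 in the active phase. The part of these lists in the results was not tested.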

How the data were processed

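Each deposited file holds 1 signal value per gene and library. No label states its scaling. From the values, whose totals run from 0.633 M to 1.90 M and differ between libraries, it was read as gene counts in reads per M of a scaled library size. Per the submitters' processing notes the build was mm10 (GRCm38) and the tools listed, with no role or order, are edgeR 3.2.23, featureCounts 1.5.2, STAR 2.5.3a, cutadapt 1.16, Trim Galore 0.4.3 and FastQC 0.11.5; per the labels' protocols, ribosome-depleted stranded libraries were read as pairs of 100 bp. The sources used here give neither annotation release nor strand setting. In every library 100% of values were whole multiples of 1 read within 0.05 read, so reads were recovered. Libraries held 2.19 M to 27.6 M reads, which leaves low members with few.

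The test was limma 3.58.1 (trend, robust; R 4.3.3) on log2(value + 0.5), in 1 model of 24 groups over 11461 genes, with Benjamini-Hochberg adjustment within each contrast. A fold on this scale understates the change of low genes. The planned edgeR test needs counts, so limma replaced it. Recovered reads were tested with DESeq2 1.42.0 and with edgeR 4.0.16 as alternatives. Rhythms were tested with a 24 h cosine and sine. The procedure was tested on simulated data. The simulated reads had the same spread setting for every gene and no GC or length slope. They cannot show how the calls behave under such slopes.

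Identifiers were matched to GENCODE vM21, and 11449 had a symbol. Protein features came from its translated coding sequences; the KRAB pattern, which at first found 90 members, was widened after these features had been seen. Promoters are from RefSeq. Members, lists and tests were chosen with earlier results of these data known. Named genes were members past the threshold, at 0 h the 10 lowest and 3 highest by test statistic with a mean value of at least 2, the 3 highest per kb, the role lists, the smallest p per later hour and the 3 smallest per rhythm arm, and the 4 called genes, which an earlier analysis of these files had named. Alternatives were other pseudocounts, filters, scalings, blocks, slopes, weights and subsets. No comparison with expression-matched genes was made; counts and medians stand beside those of all genes.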

Additional observations from a re-analysis of the deposited data

Results flagged for a closer look

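The value of Zfp982 in exercised replicate 1 of the rest phase at 0 h was far from the rest of its group, at 0.54 on the log2(value + 0.5) scale, where the nearest of the other 3 libraries was at 1.18. The gap took 0.876 of the range of the group, above Dixon's limit of 0.829 for 4 samples. It was 1 such case among 24 sets of values examined, and chance gives about 1 in 20. No cause was tested.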

How the results depend on the processing

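The 4 falls of the active phase kept their direction under every alternative run for them, and their calls did not. With a mean value of at least 5, Zfp982 and Zfp760 were left out of the test. Zfp979 and Zfp14 stayed called (2 of 165 members, with 9 of 8561 genes called lower). The number called lower was 0 with the GC slope covariate (0%, against 0.105% of all genes). It was 2 with both slopes, Zfp982 and Zfp14 (0.741%, against 0.262%). It was 61 with array weights (22.6%, against 11.4%) and 12 with only the libraries of the contrast (4.44%, against 0.532%). Leaving out 1 library gave from 1, without exercised replicate 1, to 6, without exercised replicate 4. In these 2 fits 8 and 58 of all 11461 genes were called lower. Without exercised replicate 6 the number was 2, with 16 of all genes. Zfp760 was not called by edgeR or DESeq2 (adjusted p = 0.058 and 0.052). The number called higher was 1 with the length slope, Zfp423 (0.370%, against 1.46% of all genes). It was 1 with the GC slope, Zfp948 (0.370%, against 0.681%). The log2 difference of Zfp948 was 0.83 (adjusted p = 0.0020, limma), and 0.32 without the covariate. With both slopes the number was 1 (0.370%, against 1.14%), and with array weights 31 (11.5%, against 19%). With only the libraries of the contrast it was 3 (1.11%, against 1.48%). DESeq2 called 2 higher, Zfp358 and Zfp423 (0.741%, against 1.2%). Leaving out 1 library gave from 0 to 3. The 3 came without exercised replicate 4, where 253 of all 11461 genes were called higher. Genes named here outside the rule were chosen after their values were seen.

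In the rest phase, array weights called 61 lower (22.6%, against 9.04% of all genes) and 25 higher (9.26%, against 18.9%), and only the libraries of the contrast 66 and 23; leaving out 1 library called from 0 to 0.

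The median of members in the rest phase was -0.042 with the length slope, -0.015 with the GC slope and -0.0099 with both, and from -0.22 to -0.13 when leaving out 1 library. In the active phase it was -0.075, 0.028 and 0.028, and from -0.23 to -0.14. The KRAB median in the rest phase was -0.36 with a pseudocount of 2, -0.13, -0.076 and -0.048 with the slopes, and from -0.50 to -0.39. In the active phase it was -0.19, 0.025 and -0.012 with the slopes, and from -0.51 to -0.39. With the first KRAB pattern it was -0.45 and -0.42. The slopes' part was not tested.

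At later hours both slopes called 1 member, Zfp622 at 12 h of the rest phase (0.370%, against 0.471% of all genes in that contrast). Array weights called 403 over 10 contrasts (14.9%, against 14.8% of all genes). In the interaction, array weights called 32 members at 8 h (11.9%, with 14.8% of all genes), 2 members at 12 h (0.741%, with 0.166%) and 71 members at 20 h (26.3%, with 36.3%). Rhythmic members of the rest phase arm numbered 3 with the length slope (1.11%, against 3.38%) and 86 with array weights (31.9%, against 33.7%). Those of the active phase arm numbered 12 with the length slope (4.44%, against 7.19%), 24 with the GC slope (8.89%, against 16.2%), 9 with both (3.33%, against 6.61%), 17 with array weights (6.30%, against 10.0%) and 1 with DESeq2 (0.37%, against 3.26%). The cause was not tested.

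Same-numbered libraries at 0 h did not deviate together in every pair (correlations from -0.04 to 0.15 in the rest phase and from -0.13 to 0.36 in the active phase), so the numbers were not taken as pairs. With the replicate block, 4 members were called lower in the active phase, the medians were -0.18 and -0.18, and no call changed. Low members limit the precision: Zfp982 rests on as few as 2 reads.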
